A study of Mus musculus with 6 samples.

Results

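Immediate early genes and response genes of the transcription factor NF-kB were followed through 6 RNA-sequencing libraries of mouse bone marrow-derived macrophages. The set of 37 genes was given by symbol, and each was matched through its Entrez number to 1 row of the deposited tables, in which 14574 genes were listed in any library. A group of 3 libraries came from Cd28 KO mice, which carry a knockout of the costimulatory receptor gene Cd28, and 3 came from C57BL/6J wild-type (WT) mice. In both groups femoral marrow of mice aged 6 to 10 weeks grew for 7 days with 25 ng/ml human M-CSF, the growth factor that drives macrophage formation, renewed every 2 days, in a medium holding 10% serum, and no stimulus is labelled. The titles number the libraries 1 to 3 in each group. No label used here says whether a number was a separate animal or a shared culture day. The p-values therefore cover only the spread among these libraries. Between replicates 1 and 2 that spread may be technical, and replicate 3 differs from both in Y-linked mRNA, given below.

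In these macrophages 0 of the 36 members that could be tested were called different between Cd28 KO and WT, against 0.0197% of all tested genes. The largest differences among the libraries lay between replicate numbers: the replicate 3 libraries of both genotypes held far more mRNA of most members than replicates 1 and 2. Dusp1 stood 12.5-fold higher in replicate 3 of Cd28 KO and 17.3-fold higher in replicate 3 of WT, and Tnf 5.69-fold and 6.05-fold. Klf2 and Btg2 went the other way and were lower in replicate 3 of both genotypes.

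Immediate early genes are transcribed within minutes of a signal, without new protein synthesis, through factors such as SRF, CREB and NF-kB that are already in the cell. NF-kB is held in the cytoplasm by inhibitor proteins until a kinase marks those inhibitors for destruction, and it then switches on cytokines, adhesion molecules and its own inhibitors. Many of the products shut the response down again: phosphatases that act on MAP kinases, proteins that destroy cytokine mRNA and inhibitors of NF-kB. In macrophages this programme follows microbial products, cytokines, growth factors and mechanical handling.

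Levels are in FPKM, fragments scaled by transcript length and by the size of the library, so that they can be compared between genes. Libraries listed 12768 to 13327 genes, and FPKM summed to 510937 to 576313. How many fragments were sequenced is unknown here. Cd28 itself was listed at 24.2 to 26.9 FPKM in Cd28 KO and 30.1 to 51.1 FPKM in WT. Its mRNA was thus still listed in every Cd28 KO library, and these values over the whole gene do not check the genotype labels. Macrophage markers (7 of 7 tested, among them Adgre1 and Csf1r) summed to 13330 to 16140 FPKM in every library, and 0 of them passed the replicate test described next. In replicate 3 of Cd28 KO and WT, neutrophil markers summed to 8.84 and 7.00 FPKM, against 2.31 to 5.65 FPKM in replicates 1 and 2. Of these sums in replicate 3, S100a8 gave 4.44 and 3.65 FPKM and S100a9 gave 3.75 and 2.33 FPKM. Ly6g, Elane, Retnlg and Camp were at 0 in both replicate 3 libraries. Ngp stood at 0.57 and 0.90 FPKM there, against 0.19 to 0.65 FPKM in replicates 1 and 2. Mpo stood at 0.08 and 0.12 FPKM, against 0 to 0.29 FPKM. Of the 2 neutrophil markers tested, 0 passed the replicate test. Dendritic cell markers summed to 4.68 and 3.72 FPKM, against 2.20 to 3.32 FPKM, and Ccr7 among them passed the replicate test (limma F adjusted p = 0.044). T cell markers summed to 1.36 and 1.67 FPKM, against 0.150 to 0.570 FPKM. Of these, Cd3d and Trac were at 0 in every library and Cd2 at 0.780 and 0.840 FPKM in replicate 3. Cd3e and Cd3g were listed only in WT replicate 3, at 0.07 and 0.21 FPKM. Lck stood at 0.58 and 0.55 FPKM in replicate 3, against 0.10 to 0.57 FPKM. B cell and fibroblast markers summed to at most 1.22 and 0.380 FPKM in any library. The part of these sums in the results was not tested. Y-linked Ddx3y, Eif2s3y, Kdm5d and Uty were listed in both replicate 3 libraries and at 0 in the other 4. Eif2s3y stood at 39.1 FPKM in Cd28 KO replicate 3 and 31.8 in WT replicate 3. Y-linked mRNA marks male cells, and no label used here gives the sex of the mice. Replicate 3 thus differs from the others in this mark of sex as well as in number, and the 2 cannot be told apart here. The part of this difference in the results was not tested. Fewer responding cells and less RNA per cell cannot be told apart in such bulk libraries.

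Differences between replicate numbers were tested with limma's moderated F test in a fit that also held the genotype, on log2(FPKM + 1), over 10172 genes whose mean reached at least 1 FPKM. Il6 was the 1 member below this level: it was listed at 0.19 FPKM in WT replicate 3 and at 0 in the other 5 libraries. Of the 36 tested members, 25 passed at a Benjamini-Hochberg adjusted p below 0.05 over all tested genes, 23 of them higher and 2 lower in replicate 3. Among all tested genes 21.4% passed, 7.41% higher and 14% lower in replicate 3. Fosb and Nr4a2 were below 1 FPKM in all 4 libraries of replicates 1 and 2 and entered the test only through replicate 3. Without them, 21 of 34 members passed as higher, against 6.89% of the 10084 genes that averaged at least 1 FPKM in those replicates. The median difference of replicate 3 from replicates 1 and 2 was 1.09 on the log2 scale over the 36 tested members and -0.10 over all tested genes.

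**Figure D1:**
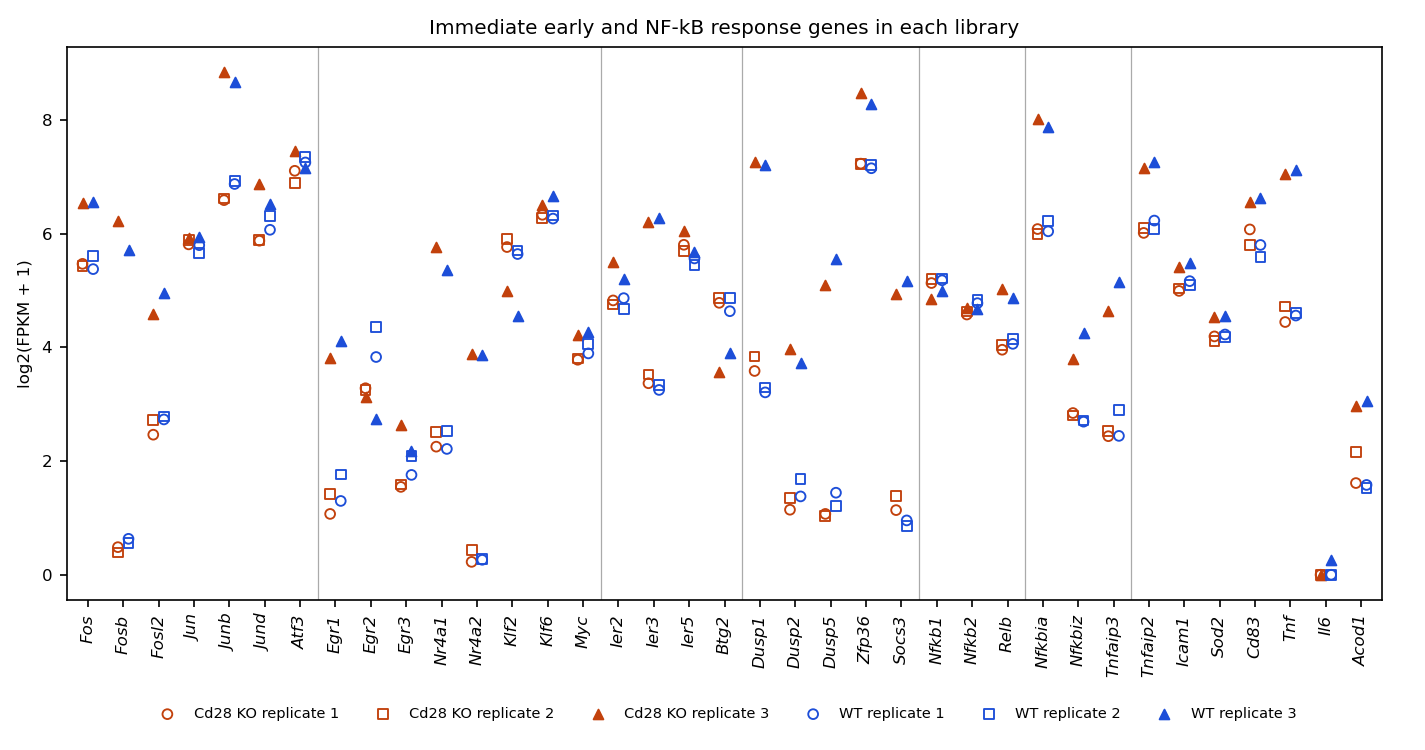
Level of each of the 37 members in each library as log2(FPKM + 1), with Cd28 KO in orange and WT in blue, open circles and squares for replicates 1 and 2 and filled triangles for replicate 3; vertical lines separate the roles. The filled triangles stand above the open symbols for 29 of the 36 tested members (15.3% of all tested genes do so) and below them for 4 (33.7%).

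The AP-1 factors are leucine zipper proteins of the Fos, Jun and Atf families that bind DNA in pairs. Fosb was listed at 0.400, 0.310 and 73.5 FPKM in Cd28 KO replicates 1, 2 and 3 and at 0.550, 0.470 and 51.8 FPKM in WT. Both replicate 3 libraries were high and the other 4 held little Fosb mRNA, whatever the genotype. Since Fosb reached the tested genes only through replicate 3, its log2 difference of 5.45 is a description. Junb, a Jun protein with weak activity of its own, stood at 95.5, 97.5 and 459 FPKM in Cd28 KO and at 117, 121 and 409 FPKM in WT. Fos, the prototype of the family, stood at 43.4, 42.3 and 91.8 FPKM against 40.6, 47.9 and 93.9. Fos was thus already abundant in replicates 1 and 2 and rose 2.14-fold and 2.12-fold in replicate 3, with a limma F adjusted p of 0.000287. Fosl2, another Fos relative, was listed at 4.52, 5.61 and 22.9 FPKM in Cd28 KO and 5.65, 5.89 and 30.2 FPKM in WT.

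Not every AP-1 gene moved by as much. Jun stood at 55.3, 58.5 and 60.1 FPKM in Cd28 KO and 54.7, 49.4 and 60.8 FPKM in WT, and did not pass (limma F adjusted p = 0.55). Atf3, a stress-induced repressor, was among the most abundant members, at 137, 118 and 175 FPKM in Cd28 KO and 152, 163 and 141 FPKM in WT (limma F adjusted p = 0.73). Atf3 was highest in replicate 3 in Cd28 KO and lowest in replicate 3 in WT. Jund, the most constantly expressed Jun gene in most tissues, stood at 57.8, 58.2 and 116.6 FPKM against 66.2, 78.4 and 90.8, and passed with a limma F adjusted p of 0.0276. The Jund locus has an exon of another gene on the opposite strand, and no strand setting is stated, so reads of the pair cannot be told apart.

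Among the other transcription factors, the orphan nuclear receptors Nr4a1 and Nr4a2 had the largest differences. Nr4a1, also called Nur77, was listed at 3.77, 4.71 and 53.5 FPKM in Cd28 KO and at 3.64, 4.75 and 40.2 FPKM in WT. Nr4a2 was listed at 0.170, 0.350 and 13.8 FPKM against 0.200, 0.210 and 13.6. In WT and Cd28 KO alike the 2 unraised libraries lay close together. Egr1, a zinc finger factor induced through SRF, stood at 1.10, 1.67 and 13.0 FPKM against 1.46, 2.40 and 16.3, a log2 difference of 2.57 ± 0.13 (SE).

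The zinc finger factors Egr2 and Klf2 departed from that pattern. Klf2, a factor known to restrain inflammatory activation of macrophages, stood at 53.5, 59.3 and 30.8 FPKM in Cd28 KO and 49.0, 51.3 and 22.5 FPKM in WT, so that both replicate 3 libraries were below the other 4 (limma F adjusted p = 0.000621). Egr2 stood at 8.73, 8.54 and 7.71 FPKM in Cd28 KO and 13.2, 19.5 and 5.72 FPKM in WT. Its replicate 3 libraries were also the lowest, but the fall was 0.350-fold in WT and 0.893-fold in Cd28 KO, and it did not pass (limma F adjusted p = 0.11). Egr3, which shares the Egr zinc fingers, stood at 1.92, 2.01 and 5.21 FPKM against 2.38, 3.27 and 3.55 (limma F adjusted p = 0.075). Klf6, a zinc finger factor of the same family as Klf2, stood at 79.7, 76.7 and 89.6 FPKM against 76.1, 79.0 and 100.7. Myc, the growth regulator, stood at 12.8, 13.0 and 17.6 FPKM against 13.9, 15.7 and 18.3. Neither passed (limma F adjusted p = 0.15 and 0.098), although both replicate 3 libraries were the highest for each.

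Of the remaining immediate early genes, Ier3, a regulator of survival that is itself an NF-kB target, stood at 9.34, 10.5 and 72.5 FPKM in Cd28 KO and 8.53, 9.13 and 76.9 FPKM in WT. Btg2, an anti-proliferative cofactor of mRNA deadenylation, moved in the opposite direction, at 26.6, 28.2 and 10.9 FPKM against 23.9, 28.1 and 14.0. Its replicate 3 libraries were both below the others (limma F adjusted p = 0.00107). Ier2, a nuclear protein gene, stood at 27.4, 26.0 and 44.4 FPKM against 28.2, 24.7 and 36.1 (limma F adjusted p = 0.0121). Ier5, at 54.99, 50.8 and 65.3 FPKM in Cd28 KO and 46.4, 42.7 and 50.2 FPKM in WT, did not pass (limma F adjusted p = 0.19).

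The feedback genes moved together, and 5 of 5 passed as higher in replicate 3. Dusp1, the phosphatase that switches off p38 and JNK, was listed at 11.01, 13.3 and 152 FPKM in Cd28 KO and at 8.25, 8.83 and 148 FPKM in WT. Dusp5, a nuclear phosphatase of ERK, stood at 1.10, 1.05 and 33.2 FPKM against 1.72, 1.32 and 46.1. Socs3, which blocks signalling by the IL-6 receptor family, stood at 1.20, 1.61 and 29.7 FPKM against 0.940, 0.810 and 34.8. Their log2 differences were 3.75 ± 0.12, 4.13 ± 0.13 and 3.97 ± 0.17 (SE), and no library of replicate 1 or 2 came near those of replicate 3. Dusp2, a phosphatase of activated leukocytes, stood at 1.21, 1.54 and 14.6 FPKM in Cd28 KO and 1.6, 2.23 and 12.2 FPKM in WT. Zfp36, the protein tristetraprolin that binds and destroys cytokine mRNA, was the most abundant member next to Junb, at 150, 149 and 358 FPKM in Cd28 KO and 141, 148 and 310.45 FPKM in WT. For Dusp5 and Zfp36, as for Nfkb2, Icam1 and Tnfaip2, an exon of another gene overlaps on the opposite strand.

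Of the 3 genes for NF-kB subunits, Relb passed and Nfkb1 and Nfkb2 did not. Nfkb1, which encodes p50 and its precursor, stood at 34.1, 36.0 and 27.9 FPKM in Cd28 KO and 35.3, 36.1 and 30.9 FPKM in WT, lowest in replicate 3 of both (limma F adjusted p = 0.18). Nfkb2, which encodes p52 and its precursor, stood between 22.9 and 27.5 FPKM in all 6 libraries (limma F adjusted p = 0.94), and its difference of replicate 3, -0.02 on the log2 scale, changed sign with median centring and with quantile normalization. Relb, the transcriptionally active partner of p52, rose from 14.6, 15.5, 15.7 and 16.7 FPKM in replicates 1 and 2 to 31.6 and 28.2 in replicate 3 (limma F adjusted p = 0.00149).

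The 3 genes for NF-kB inhibitors and regulators all passed as higher in replicate 3. Nfkbia encodes the inhibitor that retains NF-kB in the cytoplasm and is one of its most direct targets. It stood at 66.8, 62.8 and 258 FPKM in Cd28 KO and at 65.0, 73.9 and 234 FPKM in WT, 3.99-fold and 3.36-fold higher in replicate 3 (limma F adjusted p = 1.68e-05). Tnfaip3, the ubiquitin-editing enzyme A20, stood at 4.42, 4.80 and 23.9 FPKM against 4.44, 6.46 and 34.7. Nfkbiz, a nuclear cofactor needed for Il6 transcription, stood at 6.19, 5.97 and 12.9 FPKM against 5.47, 5.56 and 18.1.

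Sequence before the start of 5 of these genes is shown because they rose together in replicate 3 and carry a textbook response element there. Each was taken from RefSeq (GRCm38.p6), reads 5′ to 3′ on the strand of the gene and leaves out bases that lie in an annotated exon of it. Capitals mark a kappaB site in Nfkbia, Ier3 and Tnfaip3, 2 adjoining CArG boxes (the binding site of SRF) in Dusp5 and a cyclic AMP response element in Dusp1. A match in letters is a description and not a binding site. Such elements also lie at members that did not rise. Btg2 has a cyclic AMP response element, starts of Egr2 have kappaB sites and CArG boxes, and Nfkb2 has kappaB sites. Tnf, Junb and Socs3 rose with none of these elements from 250 bases before to 50 after their matched start.
Nfkbia, chr12:55492648-55492807, minus strand: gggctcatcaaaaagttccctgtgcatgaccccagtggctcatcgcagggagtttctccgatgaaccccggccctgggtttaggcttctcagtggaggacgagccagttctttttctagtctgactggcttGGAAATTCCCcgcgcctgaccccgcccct
Ier3, chr17:35821553-35821683, plus strand: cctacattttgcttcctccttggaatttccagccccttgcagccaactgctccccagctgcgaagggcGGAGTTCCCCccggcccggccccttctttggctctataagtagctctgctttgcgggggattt
Tnfaip3, chr10:19015411-19015547, minus strand: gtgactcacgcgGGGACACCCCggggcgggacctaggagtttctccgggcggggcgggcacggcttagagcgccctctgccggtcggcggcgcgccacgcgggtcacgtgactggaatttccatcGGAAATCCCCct
Dusp5, chr19:53528985-53529108, plus strand: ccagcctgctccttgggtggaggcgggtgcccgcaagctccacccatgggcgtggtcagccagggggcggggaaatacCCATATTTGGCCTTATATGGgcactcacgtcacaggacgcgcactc
Dusp1, chr17:26508520-26508632, minus strand: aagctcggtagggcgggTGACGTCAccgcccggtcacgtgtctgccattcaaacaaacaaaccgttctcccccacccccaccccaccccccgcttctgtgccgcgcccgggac

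Over all promoters in the RefSeq table (250 bases before to 50 after each start, both strands searched, overlapping matches kept), 29 of the 37 members were matched, with 36 promoters. The kappaB site (GGGRNNYYCC, with R for A or G, Y for C or T and N for any base) was sought first. It was found in 14 of the 36 (38.9%), in 12 genes, and in 8.46% of all 32851 promoters. The set was given in part as NF-kB response genes, so a high share of this site may follow from that choice. The CArG box, CC and GG around 6 letters A or T, was found in 6 (16.7%), in 3 genes, and in 1.63% of all. Of those 6 promoters 4 belong to starts of Egr2, and 3 of these share 1 site. The cyclic AMP response element TGACGTCA was found in 2 (5.56%) and in 1.79% of all, and the AP-1 site TGANTCA in 3 (8.33%) and in 7.81% of all. Neighbouring starts of Nfkb2 also share a kappaB site.

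Of 6 tested effector genes of NF-kB, 4 passed as higher in replicate 3. Tnf, the cytokine that gives the family its best known member, stood at 20.8, 25.4 and 131 FPKM in Cd28 KO and at 22.6, 23.4 and 139 FPKM in WT, with a limma F adjusted p of 1.85e-06. Acod1, which makes itaconate in activated macrophages, stood at 2.06, 3.45 and 6.88 FPKM against 1.99, 1.88 and 7.32. Cd83, a surface marker of activated antigen-presenting cells, stood at 66.5, 54.7 and 93.8 FPKM against 54.9, 47.4 and 97.9, and passed (limma F adjusted p = 0.00201). Tnfaip2, induced by TNF, stood at 63.7, 67.9 and 141 FPKM against 74.2, 66.7 and 153, and both replicate 3 libraries were above the other 4. The adhesion molecule gene Icam1, at 1.33-fold and 1.29-fold, and Sod2, the mitochondrial superoxide dismutase gene, at 1.31-fold and 1.29-fold, had both replicate 3 libraries on top but did not pass (limma F adjusted p = 0.0502 and 0.075).

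The pattern was present in both genotypes. The median log2 difference of replicate 3 from the mean of replicates 1 and 2 over the tested members was 1.07 within Cd28 KO, where 32 members were positive, and 1.09 within WT, where 30 were. Over all tested genes the medians were -0.13 and -0.09. In both genotypes 19 of 36 members were at least 2-fold higher in replicate 3 by the ratio of FPKM, against 2.85% of all tested genes, and 0 were at least 2-fold lower in both, against 2.95%. For 29 members both replicate 3 libraries exceeded the other 4, against 15.3% of tested genes. Without Fosb and Nr4a2 these counts were 17 and 27 of 34, the latter against 14.7% of genes that averaged at least 1 FPKM in replicates 1 and 2. For 4 members (Klf2, Btg2, Egr2 and Nfkb1) both lay below the other 4, against 33.7%, and 3 members (Atf3, Ier5 and Nfkb2) overlapped.

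**Figure D2:**
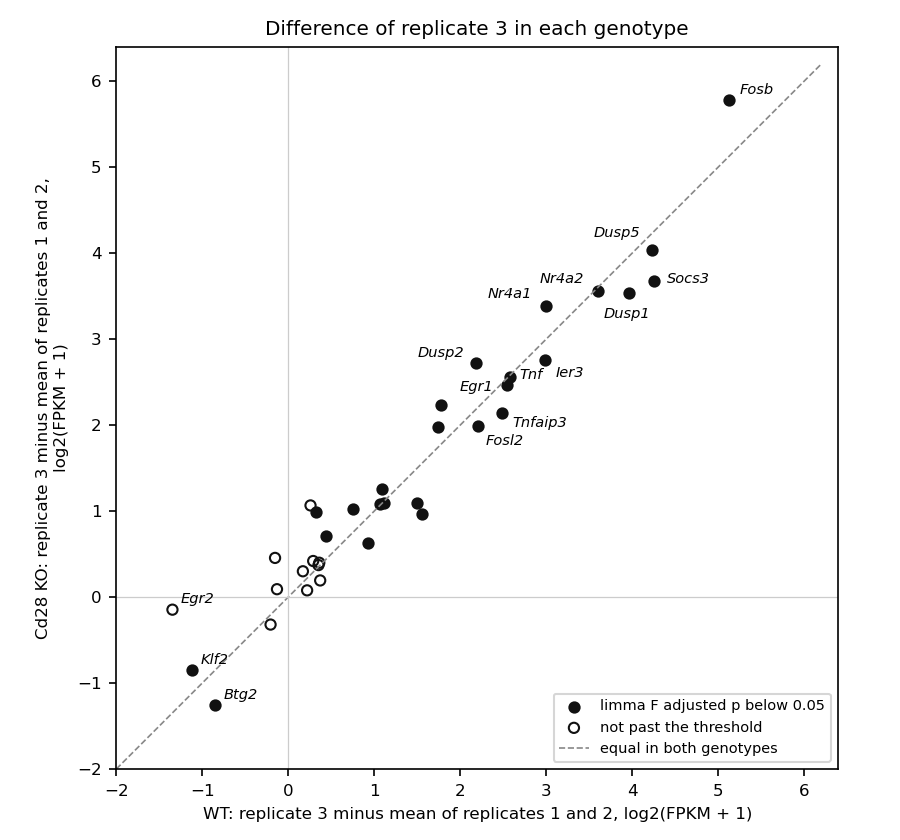
Log2(FPKM + 1) of replicate 3 minus the mean of replicates 1 and 2 for each of the 36 tested members, in WT on the horizontal and in Cd28 KO on the vertical axis, filled where limma's F test across replicate numbers passed. The points follow the dashed line of equality, from Btg2 and Klf2 at the lower left to Fosb at the upper right, and Egr2 lies off it, at a fall in WT and close to 0 in Cd28 KO.

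Genotype was compared with limma on the same scale, Cd28 KO against WT, 3 libraries each. Among the 36 tested members 0 were called, and 0 had an unadjusted p below 0.05. In all tested genes 2 were called (0.0197%) and 2.49% had an unadjusted p below 0.05. The median log2 fold change was -0.05 over the tested members, 13 of them positive, and -0.0031 over all tested genes. The members with the largest fold changes were Egr2 at -0.43 ± 0.37 (SE), Dusp5 at -0.34 ± 1.46, Dusp1 at 0.32 ± 1.33, Tnfaip3 at -0.30 ± 0.83 and Egr1 at -0.29 ± 0.92, all at a limma adjusted p of 0.9995. Next were Ier5 at 0.29 ± 0.13, Klf2 at 0.26 ± 0.36 and Fosl2 at -0.24 ± 0.75. Standard errors above 1 belong to genes whose replicate 3 libraries stood far from the rest: group means of Dusp1 were 58.7 ± 80.6 FPKM in Cd28 KO and 54.97 ± 80.4 FPKM in WT (SD, n = 3 each). A difference of the size seen could not have been called against that spread.

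A blocked fit, with the replicate number as an added term, takes the shared differences between numbers out of the error. With it, limma again called 0 of the 36 members, at adjusted p values from 0.45 upward, while 18 of all tested genes were called (0.177%). An unadjusted p below 0.05 was reached by 6 members (16.7%), against 7.89% of all tested genes. These were Ier5 (log2 difference 0.29 ± 0.09, limma adjusted p = 0.45), Dusp1 (0.32 ± 0.12, 0.54), Dusp5 (-0.34 ± 0.13, 0.55), Klf2 (0.26 ± 0.10, 0.56), Egr1 (-0.29 ± 0.12, 0.61) and Tnfaip3 (-0.30 ± 0.13, 0.63). For Ier5 alone among the tested members, all 3 Cd28 KO libraries exceeded all 3 WT libraries (3.84% of tested genes do so), and for 0 members all 3 lay below (2.87%).

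Within each replicate number, Cd28 KO was set against WT with 1 library each and no test. The median over the tested members was -0.04 in replicate 1, -0.05 in replicate 2 and -0.02 in replicate 3, beside 0.01, 0.04 and -0.05 over all tested genes. The shared genotype difference of the members was therefore close to 0 in each number. Single members ranged from -0.55 for Egr2 to 0.38 for Dusp1 in replicate 1, from -1.10 for Egr2 to 0.63 for Acod1 in replicate 2, and from -0.52 for Tnfaip3 to 0.50 for Fosb in replicate 3.

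The same sign in all 3 numbers was seen for 12 members. Lower in Cd28 KO each time were 8 members (22.2%, against 13.3% of tested genes): Fosl2, Egr1, Myc, Dusp5, Nfkb1, Tnfaip3, Icam1 and Sod2. Higher each time were 4 (11.1%, against 15%): Klf2, Ier5, Dusp1 and Zfp36. Klf2 was higher by 0.12, 0.20 and 0.44 on the log2 scale, and Ier5 by 0.24, 0.25 and 0.37. Dusp1 was higher by 0.38, 0.54 and 0.04 and Zfp36 by 0.08, 0.01 and 0.20, so some of these signs rest on differences close to 0. The signs were counted on the FPKM scale alone. Dusp5 was lower in Cd28 KO by -0.37, -0.18 and -0.46 and Tnfaip3 by -0.01, -0.36 and -0.52.

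A member was taken to depart from the shared direction, which was the negative sign of the median in every number, where it was positive in at least 2 numbers or by over 0.3 in any. By this rule 15 members departed in at least 2 numbers: Jun, Nr4a1, Nr4a2, Klf2, Ier2, Ier3, Ier5, Btg2, Dusp1, Zfp36, Socs3, Nfkbia, Nfkbiz, Cd83 and Acod1. A further 5 departed by over 0.3 in 1 number, which was replicate 3 each time: Fosb, Jund, Atf3, Egr2 and Egr3. The direction came from the members' own medians. With those so near 0, many members must lie on the other side, so the count of departures is no result. Positive members were 15, 15 and 17 of 36 in replicates 1, 2 and 3, against 51.5%, 57.6% and 43.1% of all tested genes. Most of these departures are small, as for Nr4a2 at -0.04, 0.16 and 0.02 and Nfkbia at 0.04, -0.23 and 0.14.

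**Figure D3:**
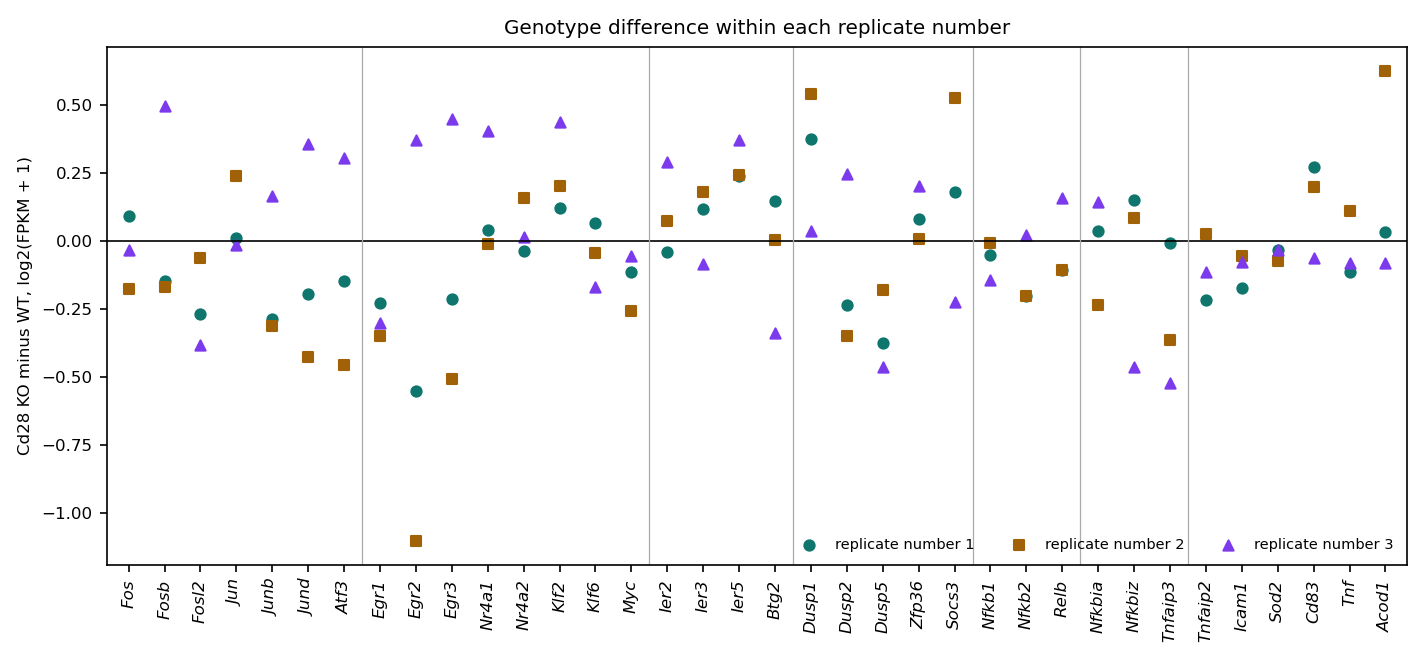
Cd28 KO minus WT in log2(FPKM + 1) for each of the 36 tested members, with circles for replicate number 1, squares for 2 and triangles for 3; each point sets 1 library against 1. Most points lie within 0.5 of 0. The triangles of Jund, Atf3, Egr2, Egr3 and Fosb lie above 0 while their circles and squares lie below it. Those of Junb, Dusp2, Relb and Nfkb2 do so by less. The reverse holds for Jun, Ier3, Btg2, Socs3, Nfkbiz, Cd83 and Acod1.

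Whether the genotype difference itself differed between replicate 3 and replicates 1 and 2 was tested with limma's interaction term. Of the 36 members 0 passed, at adjusted p values from 0.13 upward, while 7 of all tested genes did (0.0688%). The 6 members of smallest p were Egr2 (1.20 ± 0.27 on the log2 scale, limma adjusted p = 0.13), Jund (0.67 ± 0.18, 0.14), Atf3 (0.61 ± 0.18, 0.15), Nfkbiz (-0.58 ± 0.18, 0.16), Egr3 (0.81 ± 0.25, 0.16) and Fosb (0.65 ± 0.20, 0.16). At an unadjusted p below 0.05 there were 8 members (22.2%), against 18.9% of all tested genes, so the members' share was near the background. The cells of this fit with 1 library are assumed to vary like replicates 1 and 2.

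In replicates 1 and 2 alone, with the raised libraries left out, Egr2 was the member with the largest genotype difference. Its mean was 8.63 FPKM in Cd28 KO and 16.4 FPKM in WT, a ratio of 0.528 and a log2 difference of -0.83 (limma adjusted p = 0.0595). Dusp1 averaged 12.2 FPKM in Cd28 KO and 8.54 FPKM in WT, a log2 difference of 0.46 (limma adjusted p = 0.14). Differences of Junb, Jund and Atf3 were -0.30, -0.31 and -0.30 (limma adjusted p = 0.19, 0.24 and 0.25), while those of their AP-1 relatives Jun and Fos were 0.13 and -0.04. None of the 36 members was called by limma in these 4 libraries, 8 (22.2%) had an unadjusted p below 0.05, against 12.9% of all tested genes, and 71 genes in all were called (0.698%). Without overlap 13 members were lower in Cd28 KO (36.1%, against 18.3%) and 9 higher (25%, against 25.8%).

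When the replicate number was kept as a block and 1 of the replicate 3 libraries was left out, which leaves the genotype to replicates 1 and 2 with 1 residual degree of freedom, limma called 5 members, an alternative added after seeing the data. These were Egr2 (adjusted p = 8.08e-09 without the Cd28 KO library and 4.55e-09 without the WT library), Dusp1 (0.00204 and 0.00197), Jund (0.0349 and 0.0347), Atf3 (0.0441 and 0.045) and Junb (0.0479 and 0.0487). Both fits take the genotype from the same libraries of replicates 1 and 2, with Egr2 at -0.83 in each, so they are 1 result and not 2. With 1 residual degree of freedom, the error of each gene is largely borrowed from the other genes. Without the block, limma gave adjusted p values of 0.0595 for Egr2 and 0.14 for Dusp1 in replicates 1 and 2. The blocked fits called 558 and 560 of all 10172 tested genes, against 71 in replicates 1 and 2 without the block.

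Other genes of the same pathways were counted from lists drawn up by function. Of 39 further immediate early genes, 35 were tested, and 29 passed the F test as higher and 5 as lower in replicate 3. The 2 largest genotype differences in that list were Bhlhe40 at -0.35 and Id1 at 0.34 on the log2 scale. Of 30 further inflammatory targets, 21 were tested, with 12 higher and 3 lower. In these lists 2 and 4 tested genes averaged below 1 FPKM in replicates 1 and 2 and entered through replicate 3. Among 28 components of the NF-kB pathway 5 were higher and 3 lower, and among 27 kinases and SRF or CREB factors 1 was higher and 4 lower (Mrtfa, Creb1, Ep300 and Rps6ka1). Of 9 heat shock genes tested, Hspa1a and Hsp90aa1 were higher and Hsph1 lower. Over all tested genes 7.41% passed as higher and 14% as lower, so the shares called lower among pathway components and kinases were near the background.

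Within the pathway components, the raised genes were Bcl3, Rel, Nfkbie, Traf6 and Nfkbib. Bcl3, a nuclear partner of p50 and p52, stood at 12.3 to 14.2 FPKM in replicates 1 and 2 and at 42.9 and 42.4 FPKM in replicate 3 of Cd28 KO and WT. Map2k3, a kinase that activates p38, was the 1 raised gene in the list of 27 kinases and SRF or CREB factors, from 35.8 to 40.3 FPKM to 132 and 139 FPKM. Tirap and Myd88, adaptors of Toll-like receptors, and Ikbkg, the scaffold of the inhibitor kinase, were lower. Of these lists' tested genes, 0 were called between Cd28 KO and WT by limma with or without the block.

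**Figure D4:**
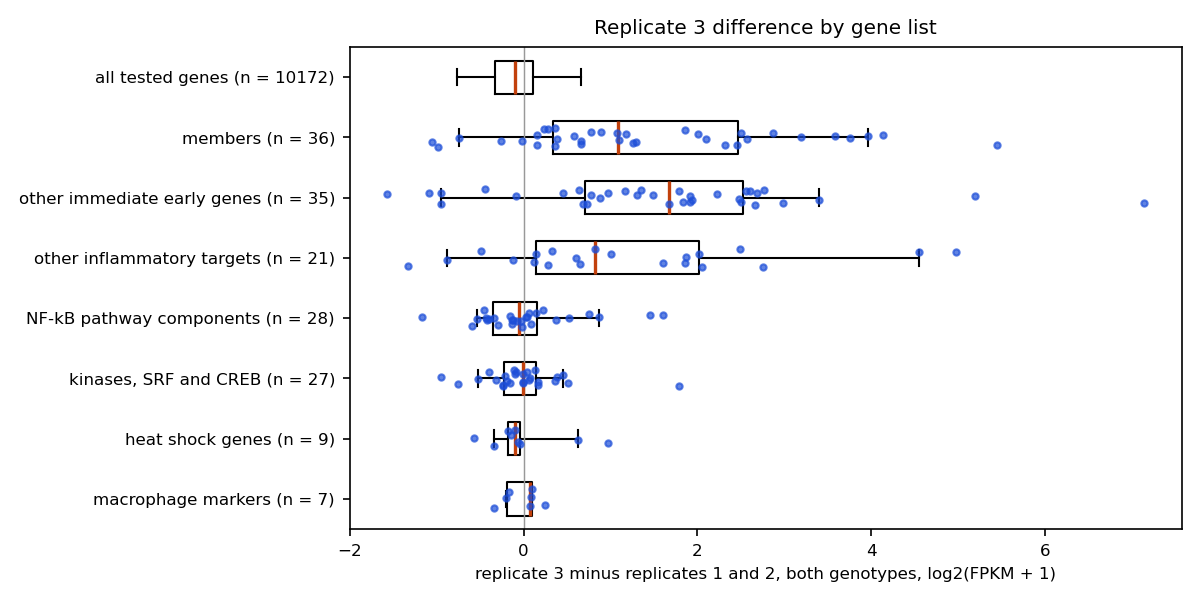
Replicate 3 minus replicates 1 and 2 on log2(FPKM + 1), averaged over the genotypes, for all tested genes, the members and 6 other gene lists; boxes span the quartiles with the median in orange, whiskers the central 90% of genes, and points single genes of the lists. Members, other immediate early genes and inflammatory targets have medians of 1.09, 1.68 and 0.83, and the other lists lie near all tested genes.

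Features of the members' genes and transcripts were also described. The set was given as immediate early and NF-kB response genes, so these features may follow from that choice. Their genes spanned a median of 6862 bases, against 22445 over the tested genes found in RefSeq, and their coding transcripts had a median of 4 exons against 9 (GENCODE M21). The pentamer ATTTA, the core of AU-rich elements that shorten the life of an mRNA, occurred in the 3′ untranslated region of 35 of 37 members (94.6%) and of 66% of 9976 tested genes, at 2.62 and 1.77 per kilobase. The longer TTATTTATT, the preferred site of the Zfp36 protein, occurred in 8 members (21.6%) and in 6.98% of tested genes. Median lengths of the region were 1065 and 949 bases. Sites of 4 members that rose in replicate 3 are shown, with TTATTTATT in capitals, in GENCODE M21 letters on the strand of the gene (GRCm38). Tnf holds 5 overlapping or neighbouring copies and Dusp1 holds 2, while Fos and Zfp36 hold 1 each. The others with the site, not shown, are Acod1, Fosl2, Nfkbia and Tnfaip3. Fosb, Nr4a1, Nr4a2, Ier3, Dusp5 and Socs3 also rose in replicate 3 and have no such site. A link between the site and the rise was not tested.
Tnf, chr17:35199688-35199717, minus strand: tttgcacttaTTATTTATTATTTATTTATT
Fos, chr12:85477103-85477132, plus strand: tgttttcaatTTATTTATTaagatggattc
Dusp1, chr17:26506158-26506187, minus strand: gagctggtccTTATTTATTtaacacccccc
Zfp36, chr7:28376950-28376979, minus strand: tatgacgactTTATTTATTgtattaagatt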

How the data were processed

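The authors deposited 1 table of FPKM per library, made with Bowtie and RSEM on GRCm38 per the submitters' processing notes, which give no version. RSEM estimates shared reads, and the depth is unknown. Genes missing from a table were set to 0. Of 14574 Entrez numbers, 14551 matched RefSeq (GRCm38.p6), which gave the symbols. Tests used limma 3.58.1 in R 4.3.3 with trend, on log2(FPKM + 1), which understates changes of low genes, for 10172 genes averaging at least 1 FPKM, two-sided, with Benjamini-Hochberg adjustment over all of them. Other folds are ratios of FPKM. Python 3.11.15, pandas 2.3.3, NumPy 2.4.6 and Matplotlib 3.10.9 were also used.

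Libraries of the same number were set against each other, although no label states that they are pairs. Deviations from group means correlated at 0.752, 0.505 and 0.783 for replicates 1, 2 and 3. Deviations from a mean of 3 libraries sum to 0, so a replicate 3 that stands apart makes replicates 1 and 2 correlate, paired or not. The correlations therefore do not show that replicates 1 and 2 are pairs. Replicate 3 stood apart in both groups, and replicate 2 of Cd28 KO correlated more with replicate 1 of WT (0.535) than with its own number, as did replicate 2 of WT with replicate 1 of Cd28 KO (0.663). On simulated libraries over 10172 genes with 50 changed genes per size, the genotype test recovered 44% of 2-fold changes and 64% with the block, the replicate test 36%, and the interaction test 0% at 2-fold and 44% at 4-fold. Changed genes were drawn at random from all tested genes. The rates therefore do not hold for members of wide spread, such as Dusp5 with an SE of 1.46 without the block. The replicate simulation held no other replicate differences, so its rate is not comparable with the rest.

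Members, lists, tests and the separation of replicate 3 were chosen with earlier results of these data known. Values were printed for the members highest in level, fold change and each test, those departing from the shared direction or passing a test, and Tnf, Il6, Fos, Egr1 and Nfkbia. The sequence features were chosen after the values were seen.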

Additional observations from a re-analysis of the deposited data

How the results depend on the processing

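Members called between Cd28 KO and WT numbered 0 in every alternative chosen at the outset. With the replicate block and 1 replicate 3 library left out, added after seeing the data, 5 were called. They were the same 5 without the Cd28 KO as without the WT library. Calls over all genes rose from 2 to 18 with the replicate block, 28 with a term for replicate 3, 71 in replicates 1 and 2 alone and 5 without a filter, and remained at 2 in number when any library was left out of the unblocked fit. The members' median log2 fold change of -0.05 was -0.11 on the TPM scale, where that of all genes was -0.06, and -0.0746 with quantile normalization. With the block it was -0.0149 when replicate 2 of either genotype was left out.

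Leaving out a library without the block unbalanced the groups, since replicate 3 then weighed more on 1 side. The median ranged from -0.40 without Cd28 KO replicate 3 to 0.39 without WT replicate 3, and positive members from 4 to 29. Fold changes then ranged from -1.69 to 1.07 for Dusp5, -0.86 to 1.64 for Dusp1, -1.01 to 0.53 for Tnfaip3, -1.15 to 0.57 for Egr1, -0.12 to 0.54 for Klf2 and -0.90 to 0.50 for Fosl2, while Egr2 stayed negative and Ier5 positive.

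Members past the replicate F test numbered 22 without a filter to 28 with median centring, against 25, and members past the interaction test 0 throughout. The difference of Nfkb2 reversed to 0.12 with median centring and 0.0135 with quantile normalization. Median centring moved the replicate 3 median of all genes from -0.10 to 0.03 and that of the members from 1.09 to 1.23. The TPM scale moved the interaction median of all genes from -0.08 to -0.24. The unknown depth limits statements on members below 1 FPKM.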

Other observations

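The Id genes, which encode partners that keep basic helix-loop-helix factors off DNA, included the 2 genes with the largest replicate 3 differences in the other lists, Id3 and Id1. Id3 was listed at 1.00 to 1.37 FPKM in replicates 1 and 2 and at 360 and 273 FPKM in replicate 3 of Cd28 KO and WT, a log2 difference of 7.14 (limma F adjusted p = 5.95e-08). Id1 went from 0.240 to 0.690 FPKM to 62.9 and 38.4 FPKM, and Id2 from 69.2 to 84.4 FPKM to 551 and 522 FPKM. Id1 was below 1 FPKM throughout replicates 1 and 2. It reached the tested genes only through replicate 3, so its rank is a description.

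Chemokines moved in both directions. Cxcl1 and Cxcl2, which attract neutrophils, went from 0.230 to 0.350 FPKM to 27.9 and 30.5 FPKM, and from 1.74 to 3.33 FPKM to 108.5 and 116 FPKM. Ccl3 and Ccl4, which attract monocytes and lymphocytes, were lower in replicate 3, at 135 and 83.2 FPKM against 186 to 201 FPKM, and at 56.8 and 32.5 FPKM against 90.2 to 127 FPKM. Ccl5 was higher, at 47.5 and 30.5 FPKM against 22.9 to 25.7 FPKM (limma F adjusted p = 0.021). The phosphatase gene Dusp6 fell while Dusp1, Dusp2 and Dusp5 rose, from 21.7 to 27.8 FPKM to 7.69 and 7.78 FPKM (limma F adjusted p = 7.1e-05).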
